A study of Mus musculus with 13 samples.

Results

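The genes described here were 10 transcription and chromatin factors of naive pluripotency, Nanog, Klf4, Klf2, Esrrb, Zfp42, Dppa3, Prdm14, Nr0b1, Tfcp2l1 and Gbx2. They were picked out by symbol from the 25965 rows of an RNA-seq table of log2 CPM, the log2 of reads per gene scaled to a common library total. Each of the 10 symbols stood on 1 row, and all 10 passed the filter on low values, a mean over the 12 libraries of days 4 to 7 no lower than 0 on that scale, which left 13406 genes for testing. Of the 80 same-day comparisons of these 10 genes between a Smarcc1 knockdown library and the control library, 78 were higher with knockdown.

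Naive pluripotency is the state of the pre-implantation epiblast, which mouse embryonic stem cells (mESCs) hold in culture when ERK signalling and GSK3 are inhibited and leukaemia inhibitory factor (LIF) is supplied. A set of transcription factors that bind and activate one another's genes keeps this state, with Oct4 and Sox2 at its core and Nanog, Esrrb, Tfcp2l1 and the Klf factors around them. When the inhibitors are withdrawn these naive factors are switched off, while Oct4 persists into the formative and primed states, and the loss of Nanog, Prdm14 and Zfp42 is tied to the upregulation of Xist at the start of X chromosome inactivation. The BAF complex, an ATP-dependent chromatin remodeller of which Smarcc1 (BAF155) is a core subunit, sits on enhancers and promoters of pluripotency genes in mESCs.

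All samples came from female F1 mESCs of an FVB/NJ mother and a CAST/EiJ father, expanded in 2i medium with LIF and moved stepwise into serum-containing medium without inhibitors, an undirected differentiation. The differentiating cells carried a retroviral short hairpin delivered on day 2 and selected with puromycin from day 3. The hairpins were Nons, a non-targeting control, and Smarcc1.6 and Smarcc1.7, which target Smarcc1. Day0 was 1 undifferentiated library without a hairpin, and the 3 hairpin groups each had 1 library on days 4, 5, 6 and 7. Days therefore served as the replicates, differences were taken within day, and both Smarcc1 hairpins were compared with the same 4 Nons libraries. Nothing in the labels gives separate cultures, so that p-values measure only the spread between these libraries. In bulk RNA a lower value can be fewer cells with a transcript or less of it per cell, and these cannot be told apart.

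The guide strands are shown because each defines its group. They are printed 5′ to 3′ with the seed, bases 2 to 8, in capitals.

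Smarcc1.6 guide: tGTAACTGcttcttcatcctgc

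Smarcc1.7 guide: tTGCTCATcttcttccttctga

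Nons guide: cTTACTCTcgcccaagcgagag

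The full-length complement of the Smarcc1.6 guide lay at chr9:110177472-110177493 (mm10, plus strand), in coding exon 13 of Smarcc1. That of the Smarcc1.7 guide lay at chr9:110173911-110173932, in coding exon 11. Smarcc1 was the only gene with either site in the GENCODE M21 transcripts, and the Nons guide had no full-length site, so none of the 10 factors was a perfect target of any hairpin.

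The depth recovered from the table ran from 13993440 to 63548092 mapped reads per library. Smarcc1 itself was lower in 8 of 8 same-day comparisons, by 0.38 to 1.68 on the log2 scale, which left on average 43.9% of the Nons level with Smarcc1.6 and 52.5% with Smarcc1.7. Day0 and the 3 libraries of day 6 stood apart from the rest, with 85.3% to 86.5% of reads in annotated genes against 91.6% to 92.6% in the other 9 and with 1.99% to 2.53% of gene reads in ribosomal protein genes against 4.58% to 7.41%. Changes from Day0 are given as values only, and the counts of factors higher with knockdown are also given without day 6. On day 6, 559 tested genes lay at least 1 log2 unit to the same side of the mean of days 5 and 7 in all 3 groups, and 0 of the 10 factors did.

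In Day0, with counts divided by exon length, Nanog had the highest level (9.30 log2 CPM per kb), followed by Zfp42 (8.07). Tfcp2l1, Klf2, Nr0b1 and Esrrb lay together between 6.48 and 6.67, then came Dppa3, Klf4 and Prdm14 between 5.11 and 5.68. Gbx2 was last, at 2.34. With 1 Day0 library the order of close neighbours has no error estimate. By day 7 of the Nons series the order had Nanog first (6.77), Zfp42 at 3.06 and Dppa3 at 2.74, with Nr0b1 last at 0 reads.

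**Figure D1:**
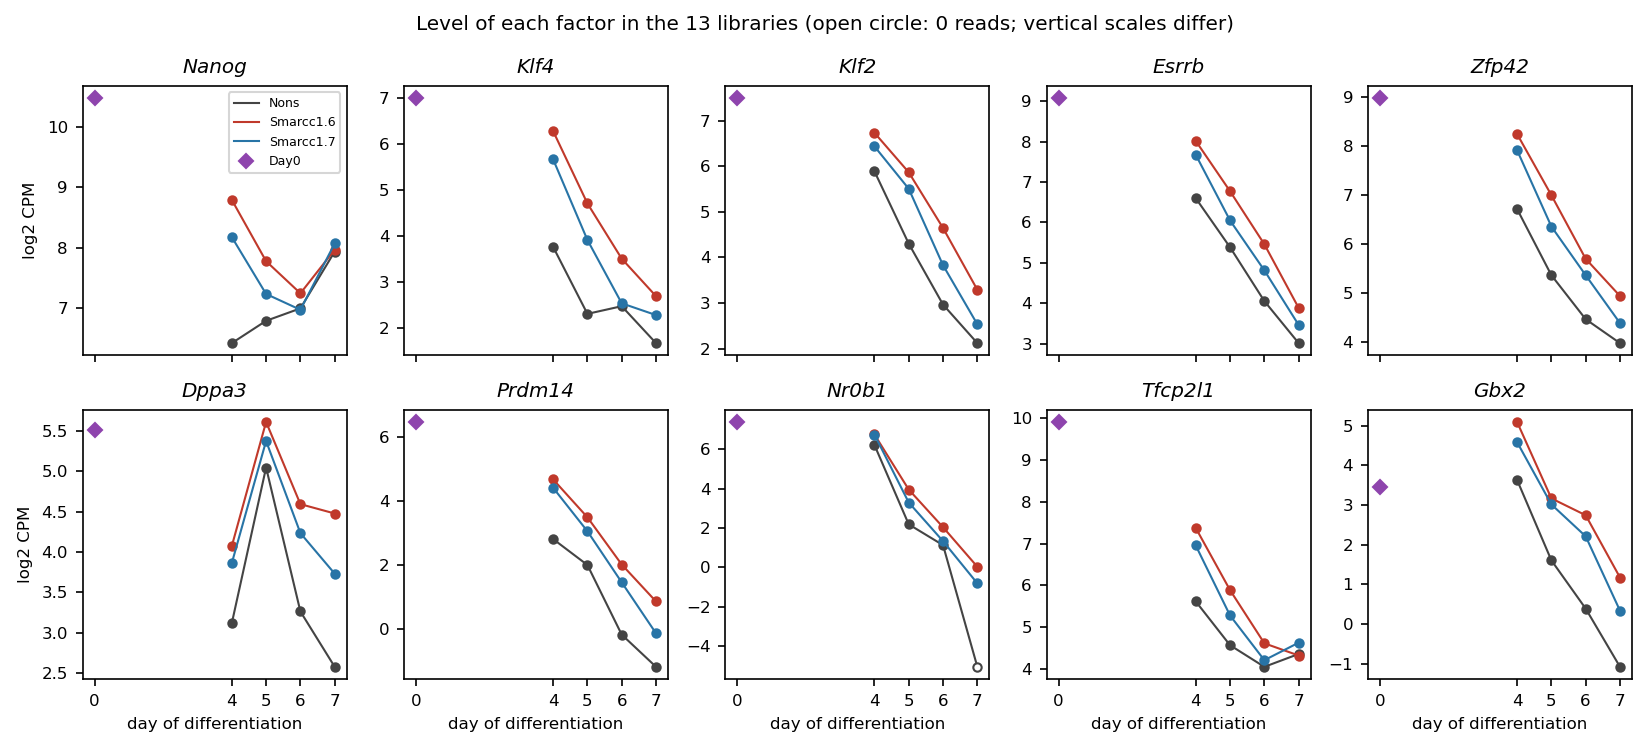
Level of each factor (log2 CPM, vertical axis, a separate scale in each panel) against day of differentiation in the 13 libraries, with the Day0 library as a diamond and Nons, Smarcc1.6 and Smarcc1.7 as lines through 1 point per day. In 8 panels there are mostly falling lines with both Smarcc1 hairpins above Nons on all or nearly all days, while Nanog turns upward by day 7, Dppa3 has its peak on day 5, and the open circle for Nr0b1 marks 0 reads.

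On day 4 the Nons library already held 9 of the 10 factors below Day0, with a median change over the 10 of -2.44 on the log2 scale, against a median of 0.03 over all tested genes. The medians were -0.91 with Smarcc1.6 and -1.37 with Smarcc1.7. Tfcp2l1 and Nanog had lost most in Nons, at 5.13% and 6.07% of their Day0 CPM. With Smarcc1.6 they stood at 17.3% and 31.3%, and with Smarcc1.7 at 12.9% and 20.4%. Prdm14 (7.89%) and Klf4 (10.6%) came next in Nons. Of these 4, Klf4 had the highest knockdown values, 60.9% and 39.7%. Nr0b1 had lost least of the 9, with 44.5% of Day0 left in Nons and 64.4% and 64.2% with the hairpins. Gbx2, a homeobox factor downstream of LIF and STAT3, was the exception, at 112% of Day0 in Nons, 310% with Smarcc1.6 and 218% with Smarcc1.7. These percentages set hairpin libraries against a library with no hairpin from the set that stood apart, and have no replicate.

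**Figure D2:**
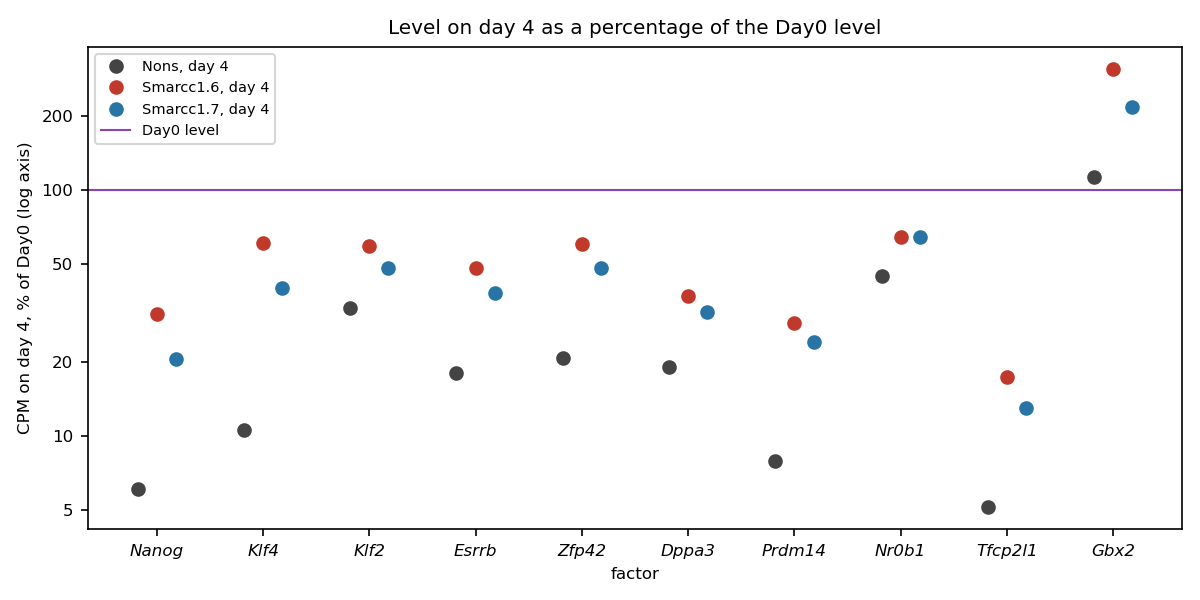
CPM on day 4 as a percentage of the Day0 level (vertical log axis) for each factor, 1 point per group. Nons is the lowest of the 3 points for all 10 factors, from 5.13% for Tfcp2l1 to 112% for Gbx2, and only Gbx2 lies above the Day0 line.

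Nanog, the homeobox factor whose loss marks the exit from the naive state, had its lowest level on different days in Nons and with knockdown. Its gene lies at chr6:122707489-122714633, on the plus strand. From 10.47 log2 CPM in Day0, Nanog stood at 6.43, 6.80, 7.00 and 7.94 in Nons on days 4, 5, 6 and 7. Under Smarcc1.6 the values were 8.79, 7.78, 7.25 and 7.97. Under Smarcc1.7 the values were 8.18, 7.24, 6.98 and 8.07. The lowest Nons value was thus on day 4 and the lowest knockdown values on day 6, and the 3 groups met on day 7 within 0.13 log2 units of Nons. The knockdown difference shrank with it, from 2.37 (Smarcc1.6) and 1.75 (Smarcc1.7) on day 4 to 0.98 and 0.44 on day 5 and 0.25 and -0.02 on day 6. Averaged over days it was 0.91 ± 1.05 (SD, n = 4) with Smarcc1.6 and 0.58 ± 0.81 (SD, n = 4) with Smarcc1.7, so that the spread between days exceeded the mean. In limma the knockdown difference of 0.74 ± 0.26 (SE) did not pass (adjusted p = 0.0859). It passed in 1 of 25 settings, without the Nons library of day 7 (0.96, adjusted p = 0.0480). Without the Nons library of day 4 it was 0.30 (adjusted p = 0.241), and the difference with Smarcc1.7 alone went from 0.58 to 0.14.

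The Nanog start region is shown because Nanog was the 1 factor of the 10 that did not pass. The 250 bases upstream of its first RefSeq start (GRCm38.p6, chr6:122707239-122707488, plus strand) were searched, and the capitals mark the SOX core motif ACAATG at positions -67 to -62 from the start.

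Nanog upstream region: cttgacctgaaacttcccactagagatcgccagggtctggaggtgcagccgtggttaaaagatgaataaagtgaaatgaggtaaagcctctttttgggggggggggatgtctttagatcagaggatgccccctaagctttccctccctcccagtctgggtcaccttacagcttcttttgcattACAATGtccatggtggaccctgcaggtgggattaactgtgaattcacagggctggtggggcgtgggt

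Klf2 and Klf4 are Krüppel-like factors that act redundantly with Klf5 in self-renewal, Klf4 downstream of LIF and STAT3 and Klf2 under ERK inhibition. Klf4 (chr4:55527143-55532466, minus strand) had 7.00 log2 CPM in Day0. In Nons it was at 3.76, 2.30, 2.47 and 1.66 in day order. Smarcc1.6 libraries stood at 6.29, 4.71, 3.51 and 2.69. With Smarcc1.7 it was at 5.67, 3.91, 2.53 and 2.28. Both hairpins lay above Nons on each day, and the day 5 levels with knockdown exceeded the day 4 level of Nons. The difference was widest on day 4, at 2.53 and 1.91, and on day 6 the Smarcc1.7 library was only 0.06 above Nons. Klf4 was higher by 1.40 ± 0.29 (SE) with knockdown (limma adjusted p = 0.0128).

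Klf2 (chr8:72319033-72321656, plus strand) had 7.49 log2 CPM in Day0 and 5.89, 4.30, 2.97 and 2.12 in Nons. The Smarcc1.6 libraries had 6.73, 5.87, 4.65 and 3.29. The Smarcc1.7 libraries had 6.44, 5.51, 3.83 and 2.53. Unlike Klf4, its difference was small on day 4 (0.84 and 0.55) and larger on day 5 (1.56 and 1.20), and with Smarcc1.6 it was largest on day 6 (1.68). The average difference was 1.31 ± 0.38 (SD, n = 4) with Smarcc1.6 and 0.76 ± 0.35 (SD, n = 4) with Smarcc1.7. Klf2 was higher by 1.04 ± 0.19 (SE) with knockdown (limma adjusted p = 0.00663).

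Esrrb is an orphan nuclear receptor that is a direct target of Nanog and of GSK3 inhibition through Tcf7l1. Its gene lies at chr12:86361117-86521628 on the plus strand, and Day0 had 9.08 log2 CPM. Nons gave 6.60, 5.39, 4.05 and 3.01. Smarcc1.6 gave 8.02, 6.77, 5.46 and 3.88. Smarcc1.7 gave 7.68, 6.05, 4.81 and 3.46. The order Smarcc1.6, Smarcc1.7, Nons held on each day, with Smarcc1.6 differences of 1.39 to 1.42 on days 4 to 6 and 0.87 on day 7. Esrrb had the smallest SD over days of the 10 factors with either hairpin, with a mean of 1.27 ± 0.27 (SD, n = 4) with Smarcc1.6 and 0.74 ± 0.26 (SD, n = 4) with Smarcc1.7. It was higher by 1.00 ± 0.16 (SE) with knockdown (limma adjusted p = 0.00475).

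Tfcp2l1 is a grainyhead-family factor downstream of LIF and STAT3 that can sustain naive cells. The gene (chr1:118627945-118685167, plus strand) shares 130 of its 9438 exon bases with the small nuclear RNA gene Gm23497. Day0 had 9.91 log2 CPM. The Nons libraries had 5.62, 4.57, 4.06 and 4.36. With Smarcc1.6 it had 7.37, 5.89, 4.62 and 4.33. With Smarcc1.7 it had 6.96, 5.28, 4.22 and 4.63. Like Nanog, the groups started apart and met, since the differences of 1.75 and 1.34 on day 4 had become -0.04 and 0.27 on day 7. Tfcp2l1 was higher by 0.76 ± 0.21 (SE) with knockdown (limma adjusted p = 0.0360), a call that was lost without day 5 (adjusted p = 0.160), without day 6 (0.0794) and in 13 others of the 25 settings tried. Without day 4, or without the Nons library of day 4, it was 0.50.

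Nr0b1 (Dax1), an X-linked orphan nuclear receptor that partners Oct4 and Esrrb, had the steepest loss. Its gene lies at chrX:86191764-86195947 on the plus strand, and Day0 had 7.38 log2 CPM from 3708 reads. In Nons the level was 6.21 on day 4, 2.18 on day 5 and 1.13 on day 6, and on day 7 there were 0 reads. With Smarcc1.6 it was 6.74, 3.95, 2.04 and 0.03. With Smarcc1.7 it was 6.74, 3.29, 1.33 and -0.81. From day 4 to day 5 alone the Nr0b1 level changed by -4.03 log2 units in Nons, -2.79 with Smarcc1.6 and -3.45 with Smarcc1.7. On day 7 the hairpin libraries held 60 and 29 reads. Taking 3 reads as the most that a count of 0 allows in the Nons library, Nr0b1 was at least 10.1-fold higher with Smarcc1.6 and at least 5.65-fold higher with Smarcc1.7, for counting error only. The earlier differences, in day order, were 0.53, 1.76 and 0.91 for Smarcc1.6 and 0.53, 1.11 and 0.20 for Smarcc1.7. The fitted knockdown difference of 1.79 ± 0.53 (SE, limma adjusted p = 0.0488) rests on the value written for 0 reads. Without the Nons library of day 7 it was 0.84 (adjusted p = 0.0522), without day 7 in all groups 0.84 (0.0391), and on log2(CPM + 0.5) it was 0.92 (0.0130). The difference passed in 6 of the 25 settings tried and was above 0 in all of them.

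Zfp42 (Rex1), a zinc finger protein used as the standard reporter of the naive state, lies at chr8:43295068-43307009 on the minus strand. Day0 had 8.98 log2 CPM. In Nons it had 6.72, 5.36, 4.46 and 3.97. Under Smarcc1.6 the values were 8.25, 7.00, 5.70 and 4.94. Under Smarcc1.7 the values were 7.92, 6.36, 5.36 and 4.38. The Smarcc1.6 libraries lay above the Smarcc1.7 libraries and these above Nons on each day. Averaged over the 4 days the difference was 1.34 ± 0.30 (SD, n = 4) and 0.88 ± 0.34 (SD, n = 4), and Zfp42 was higher by 1.11 ± 0.15 (SE) with knockdown (limma adjusted p = 0.00250).

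Of the promoters searched, that of Zfp42 held the octamer, the motif bound by Oct4, together with a KLF motif. It and the Esrrb promoter, which held a STAT motif, are printed because they held matches. Both genes fell at each step in all 3 groups. Klf2, Nr0b1 and Gbx2 did so too, and their promoters held 0 matches. The capitals mark, in Zfp42, the octamer on the reverse strand (ATTTGCAT) at -186 to -179 and the KLF motif on the reverse strand at -75 to -68 (GRCm38.p6, chr8:43307010-43307259, minus strand). In Esrrb they mark the STAT motif at -178 to -170 (chr12:86360867-86361116, plus strand).

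Zfp42 upstream region: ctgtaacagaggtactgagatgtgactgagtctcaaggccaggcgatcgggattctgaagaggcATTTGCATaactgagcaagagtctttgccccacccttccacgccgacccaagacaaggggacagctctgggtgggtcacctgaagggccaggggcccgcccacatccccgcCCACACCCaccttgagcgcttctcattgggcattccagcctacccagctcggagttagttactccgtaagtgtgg

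Esrrb upstream region: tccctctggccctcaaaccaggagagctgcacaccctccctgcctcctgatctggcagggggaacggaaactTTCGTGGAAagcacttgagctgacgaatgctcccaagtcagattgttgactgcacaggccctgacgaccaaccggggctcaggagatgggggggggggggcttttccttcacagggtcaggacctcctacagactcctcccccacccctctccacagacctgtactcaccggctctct

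The search covered the RefSeq promoters, 250 bases before to 50 after each start, of the 8 factors with an entry (10 promoters), on both strands. It used the octamer ATGCNAAT, the SOX motif ACAATG, the nuclear receptor half-site AAGGTCA, the KLF motif GGGTGTGG and the STAT motif TTCNNNGAA, none of which contains another. Of all 32851 promoters, 3.15% held the octamer, 12.6% the SOX motif, 4.72% the half-site, 3.56% the KLF motif and 8.30% the STAT motif. Among the 8 factors the octamer was found in 1, the SOX motif in 2 (Nanog and Esrrb), the half-site in 0, the KLF motif in 1 and the STAT motif in 1. These matches are descriptions of the letters in the window. Only exact letters were matched, so an absent match does not mean that the factor has no site there. In the printed Nanog region the letters just before the SOX motif, ttttgcat, differ from the reverse-strand octamer by 1 letter and are not marked. Prdm14 and Dppa3 were not searched.

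Gbx2 (chr1:89927962-89933290, minus strand) was low throughout, with 3.46 log2 CPM in Day0. Nons gave 3.63, 1.603, 0.39 and -1.08. The Smarcc1.6 libraries had 5.09, 3.17, 2.74 and 1.17. The Smarcc1.7 libraries had 4.59, 3.01, 2.21 and 0.33. It had the largest difference of the 10 factors in both hairpins on day 6 (2.36 and 1.82), and the average was 1.91 ± 0.46 (SD, n = 4) with Smarcc1.6 and 1.40 ± 0.36 (SD, n = 4) with Smarcc1.7. Gbx2 was higher by 1.65 ± 0.20 (SE) with knockdown (limma adjusted p = 0.00166). This gene is uncertain, because 946 of its 2177 exon bases are shared with the antisense gene D130058E05Rik, and the counting is not stated to use strand, so reads of the pair cannot be told apart.

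Prdm14, a PR-domain protein that represses FGF signalling and DNA methyltransferases in naive cells and also specifies germ cells, lies at chr1:13113457-13127163 on the minus strand. Day0 had 6.47 log2 CPM. The Nons libraries had 2.81, 1.99, -0.18 and -1.19, the last from 13 reads. Smarcc1.6 gave 4.67, 3.49, 2.01 and 0.85. Smarcc1.7 gave 4.41, 3.05, 1.45 and -0.14. Prdm14 kept a difference of 1.05 or more in all 8 comparisons, the only factor to do so. Averages were 1.90 ± 0.30 (SD, n = 4) and 1.34 ± 0.33 (SD, n = 4), and Prdm14 was higher by 1.62 ± 0.21 (SE) with knockdown (limma adjusted p = 0.00193).

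Dppa3 (Stella), a maternal factor that protects methylation imprints and is expressed in naive and germ cells, had its peak in the middle of the series. Its gene lies at chr6:122626410-122630272 on the plus strand, and Day0 had 5.51 log2 CPM. In Nons it had 3.12, 5.05, 3.26 and 2.58. With Smarcc1.6 it had 4.07, 5.61, 4.59 and 4.48. With Smarcc1.7 it had 3.86, 5.38, 4.24 and 3.73. In all 3 groups the day 5 level exceeded that of day 4, by 1.93, 1.54 and 1.52 log2 units, and no other factor was above its day 4 level on day 5 except Nanog in Nons. The difference from Nons was smallest at the peak (0.57 and 0.33) and largest on day 7 (1.90 and 1.16). Dppa3 was higher by 0.99 ± 0.17 (SE) with knockdown (limma adjusted p = 0.00624). Its transcript is 98.2% identical over 451 bases to the pseudogene Dppa3-ps and 91.1% over 450 bases to Gm47576. Neither symbol has a row in the table, so the counting between them could not be checked.

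Across the 10 factors, 9 were called higher with knockdown in limma at an adjusted p under 0.05 and 0 lower, and Nanog was the factor not called. Of all tested genes, 6.88% were called higher and 4.77% lower. The median fitted difference was 1.07 for the 10 factors and -0.01 for all tested genes. For Smarcc1.6 and Smarcc1.7 alone the medians over the factors were 1.33 and 0.84, also with Nr0b1 on day 7 set to its lower bound. Of the 10, 8 were higher in 8 of 8 same-day comparisons, which 7.89% of all tested genes were. The exceptions were Nanog, lower by 0.02 with Smarcc1.7 on day 6, and Tfcp2l1, lower by 0.04 with Smarcc1.6 on day 7. With Smarcc1.6 alone 8 of 10 were called higher, against 5.59% of tested genes, and Nanog (0.91, adjusted p = 0.0870) and Nr0b1 (2.07, adjusted p = 0.0622) were not. With Smarcc1.7 alone 6 of 10 were called higher, against 1.69%. Nanog (0.58, adjusted p = 0.298), Klf4 (1.05, 0.0742), Nr0b1 (1.52, 0.194) and Tfcp2l1 (0.62, 0.166) were not.

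These counts depended on single days. For both hairpins together, 5 factors were called without day 5, where 279 of 13406 tested genes were called higher. Without day 6 they were 6, where 217 genes were called higher. With day left out of the model as a replicate block 0 factors were called, and 3 genes were called higher. In the main fit 922 genes were called higher, so the calls over all genes fell too. Without day 6 the 10 differences ran from 0.89 for Tfcp2l1 to 2.21 for Nr0b1, and Dppa3 (limma adjusted p = 0.0545), Tfcp2l1 (0.0794) and Nr0b1 (0.0857) joined Nanog (0.124) in not passing. For Smarcc1.7 the count of factors was 0 without day 5, 0 without day 6 and 0 without the Smarcc1.7 library of day 6. Over all tested genes 1, 1 and 4 were called higher there, against 226 in the main fit. The count of factors was 3 without the Smarcc1.7 library of day 5 or of day 7, where 22 and 19 tested genes were called higher.

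**Figure D3:**
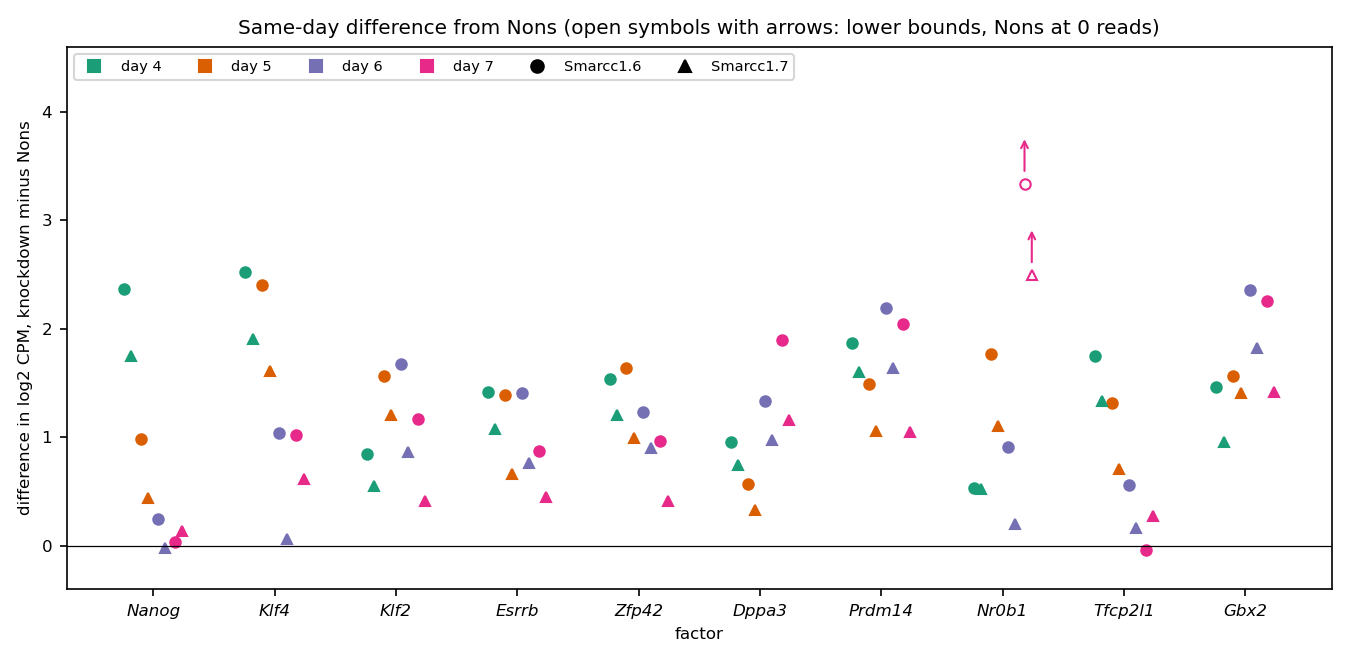
Difference in log2 CPM between each Smarcc1 hairpin library and the Nons library of the same day (vertical axis) for each factor, coloured by day, with circles for Smarcc1.6 and triangles for Smarcc1.7. Of 80 points 78 lie above 0, the points of Nanog, Klf4 and Tfcp2l1 are highest on day 4 with either hairpin, those of Dppa3 are highest on day 7, and the open symbols of Nr0b1 are lower bounds of 3.34 and 2.50.

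By day, the median difference over the 10 factors with Smarcc1.6 was 1.499 on day 4, 1.53 on day 5, 1.28 on day 6 and 1.10 on day 7. With Smarcc1.7 it was 1.14, 1.03, 0.81 and 0.53. In the same comparisons the median over all tested genes stayed between -0.04 and 0.02. With Smarcc1.6 on day 5, 8 of the 10 differed by more than 1 log2 unit upward, as did 5.18% of tested genes. With Smarcc1.7 on day 6, 2 of 10 did, as did 4.10% of tested genes.

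The Smarcc1.6 values lay above the Smarcc1.7 values in 38 of 40 same-day comparisons, and for 8 of the 10 factors on all 4 days, as for 10% of tested genes. The exceptions were Nanog and Tfcp2l1 on day 7. In limma 0 of the 10 differences between the hairpins passed (adjusted p = 0.989 for each), as did 0 of 13406 genes. At an unadjusted p under 0.05 there were 7 of the 10 factors and 530 genes. The fitted difference ran from 0.28 for Tfcp2l1 (95% interval -0.24 to 0.80) to 0.70 for Klf4 (0.08 to 1.32). For Esrrb it was 0.53 (0.30 to 0.77), the narrowest interval, and for Nr0b1 it was 0.55 (-0.81 to 1.92), the widest. Smarcc1 itself was lower with Smarcc1.6 than with Smarcc1.7 on average, and whether the factors' order follows it was not tested.

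**Figure D4:**
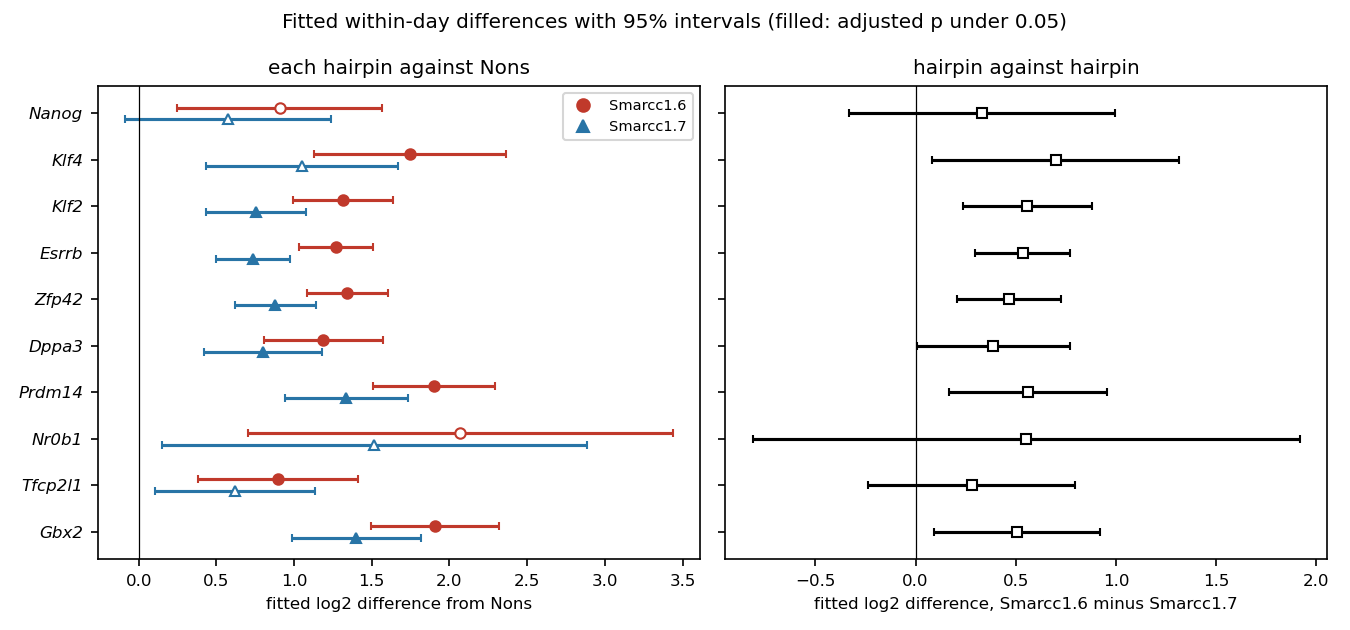
Fitted within-day log2 differences (horizontal axes) with 95% intervals for each factor, left for each hairpin against Nons and right for Smarcc1.6 minus Smarcc1.7, filled where the limma adjusted p was under 0.05. On the left 8 Smarcc1.6 and 6 Smarcc1.7 symbols are filled, on the right none is, although all 10 differences there lie above 0, and Nr0b1, whose fit uses the value written for 0 reads, has the widest intervals.

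Between days 4 and 7, over all 3 groups, 8 of the 10 factors fell with day, against 25.6% of tested genes falling and 34.9% rising. Scaling mattered for that background, because the autosomal median of the libraries ran from 4.41 to 4.68. With each library centred on it, 3574 genes rose and 4731 fell, where 4679 rose and 3435 fell as deposited, and 8 of the 10 factors still fell. The 12 libraries cover only 4 distinct days and same-day libraries deviated together, but the model of change per day has no day block. Its SE and p-values, and those of the interaction, can therefore be too small. Nr0b1 changed by -2.72 ± 0.25 log2 units per day (SE, limma adjusted p = 9.69e-06). That change uses the value written for 0 reads in the Nons library of day 7, and it ran from -3.48 to -2.15 over the settings tried. Prdm14, Gbx2, Esrrb and Klf2 came next, at -1.41, -1.37, -1.32 and -1.25 per day. Zfp42, Klf4 and Tfcp2l1 followed at -1.07, -0.99 and -0.76. For Tfcp2l1 the change was -0.40 without day 4 (limma adjusted p = 0.0745) and -1.18 without day 7 (adjusted p = 0.000229). Klf2, Esrrb, Zfp42, Prdm14, Nr0b1 and Gbx2, 6 of the 10, were lower on each day than on the day before in all 3 groups. Without day 6, 8 of the 10 again fell.

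Nanog and Dppa3 did not pass, with changes of 0.04 ± 0.15 (SE, limma adjusted p = 0.836) and -0.16 ± 0.20 (SE, adjusted p = 0.512) per day. Without day 4, which leaves out the rise to day 5, Dppa3 passed at -0.88 per day (limma adjusted p = 0.00218), and Tfcp2l1 did not. For Nanog the groups differed in sign, at 0.47 per day in Nons alone (limma adjusted p = 0.0471), -0.30 in Smarcc1.6 alone (0.326) and -0.06 in Smarcc1.7 alone (0.873). The difference between those courses was tested as the knockdown by day interaction. It was -0.65 per day for Nanog (limma unadjusted p = 0.0305, adjusted p = 0.852) and 1.15 for Nr0b1 (unadjusted p = 0.0204, adjusted p = 0.805). Klf4 and Tfcp2l1 had -0.57 (unadjusted p = 0.0514, adjusted p = 0.894) and -0.49 (unadjusted p = 0.0848, adjusted p = 0.968). Of the 10 factors 0 passed after adjustment, as did 0 of all tested genes, where 745 had an unadjusted p under 0.05. The value for Nr0b1 rests on the 0 reads of the Nons library of day 7.

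The knockdown libraries were also set beside the Nons library of the day before. With Smarcc1.6, 7 of the 10 factors on day 5 were at or above their Nons level of day 4, 8 on day 6 were at or above day 5, and 8 on day 7 were at or above day 6. With Smarcc1.7 the counts were 4, 3 and 4. Beside them stood all tested genes that fell by more than 1 log2 unit between the same Nons libraries. With Smarcc1.6, 21.5%, 22.7% and 23.3% of these were at or above the earlier Nons level. With Smarcc1.7 the shares were 7.53%, 12.5% and 19.6%. The 10 factors were counted whether they fell or rose in Nons, so these shares are not a matched background. In Nons, Nanog rose at each step, by 0.37, 0.21 and 0.94. Dppa3 rose by 1.93 to day 5, Klf4 by 0.17 to day 6 and Tfcp2l1 by 0.31 to day 7. A factor that rose in Nons counts here even where knockdown equals same-day Nons. With Smarcc1.6, Nanog, Klf4, Prdm14, Zfp42 and Tfcp2l1 were at or above the earlier Nons level on all 3 days. For Nanog and Tfcp2l1 on day 7 this reflects the rise in Nons, since they differed from same-day Nons by 0.03 and -0.04. The comparisons that involve day 6 set it beside libraries from which it stood apart.

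Over the 12 libraries of days 4 to 7, the 8 factors other than Nanog and Dppa3 had Pearson r of 0.79 to 0.99 with one another (28 pairs). Nanog had r of -0.03 to 0.52 with the others and Dppa3 -0.03 to 0.49. These are descriptions over libraries that share days and depth. Among tested genes outside the 10, the closest in course were Gpn1 and Enox1 to Klf2 (r of 0.995 and 0.994), Ankrd35 and Ipmk to Esrrb (0.995 and 0.992), Cenpm and Mreg to Zfp42 (0.993 and 0.988) and Glb1 and Pik3r4 to Tfcp2l1 (0.991 and 0.982). Rab27a and Csrnp2 were closest to Klf4 (0.982 and 0.980), Btbd11 and Dnahc12 to Prdm14 (0.985 and 0.985), and Clstn3 and Syn1 to Nr0b1 (0.985 and 0.984). Dnahc12 was also closest to Gbx2 (0.983), followed by the antisense gene D130058E05Rik (0.983). Nanog had no partner as close, with Dok5 (0.906) and 2610019F03Rik (0.905) first, and Dppa3 had Ctps2 (0.940) and Cpsf4l (0.933).

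The wider pathway was read from lists of genes given by symbol, beside the 6.88% of all tested genes that rose with knockdown, the 4.77% that fell and their median of -0.01. With Smarcc1.6 alone 5.59% rose and 3.71% fell, and with Smarcc1.7 alone 1.69% and 0.768%. Of 8 core pluripotency genes, 3 rose with knockdown and 1 fell in limma, with a median difference of 0.14. Sox2 rose by 0.69 (limma adjusted p = 0.00888), Dppa4 by 0.70 (0.00145) and Dppa2 by 0.64 (0.0454), while Sall4 fell by 0.23 (0.0411). With Smarcc1.6 alone 3 core genes rose and 0 fell. With Smarcc1.7 alone 1 rose, Dppa4, and 0 fell, so Sall4 passed with neither hairpin alone. Pou5f1, which encodes Oct4, differed by 0.07 (adjusted p = 0.604) and lay between 9.55 and 10.58 log2 CPM in all 12 libraries. Of 12 other genes of the naive state and the LIF pathway, 7 rose and 0 fell, with a median of 0.69. With Smarcc1.6 alone 7 rose and with Smarcc1.7 alone 5, and 0 fell with either. The largest differences with knockdown were those of Tcl1, a co-activator of Akt, at 1.82 (limma adjusted p = 0.00372) and Fbxo15, a classical Oct4 and Sox2 target, at 1.58 (0.00193). In the Nons library of day 7 Tcl1 stood at -3.31 log2 CPM, the level of 3 reads there, so its size rests in part on few reads. The 5 that did not pass were Stat3, Lifr, Klf5 and Tbx3, with differences of -0.16, -0.06, -0.37 and -0.26, and the LIF co-receptor gene Il6st, with 0.56 (adjusted p = 0.0985). Among the 7 was Socs3, a STAT3 target named here after its values were seen, at 0.55 (limma adjusted p = 0.00802).

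Of 10 regulators of the exit from the naive state, 1 rose, close to the 6.88% of all tested genes, and 0 fell, with a median of 0.05. The gene was Rbpj, the Notch pathway effector, at 0.47 (limma adjusted p = 0.00349), and Tcf7l1, the repressor of Esrrb and Nanog, differed by -0.03 (0.905). Of 12 formative and primed genes, 2 rose and 0 fell, beside 6.88% and 4.77% of all tested genes, with a median of 0.17, and with either hairpin alone 0 rose and 0 fell. Otx2, which directs Oct4 to formative enhancers, rose by 0.61 (limma adjusted p = 0.0167), and the de novo methyltransferase gene Dnmt3a by 0.69 (0.0344). Fgf5, the standard primed marker, differed by -0.21 (adjusted p = 0.415).

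**Figure D5:**
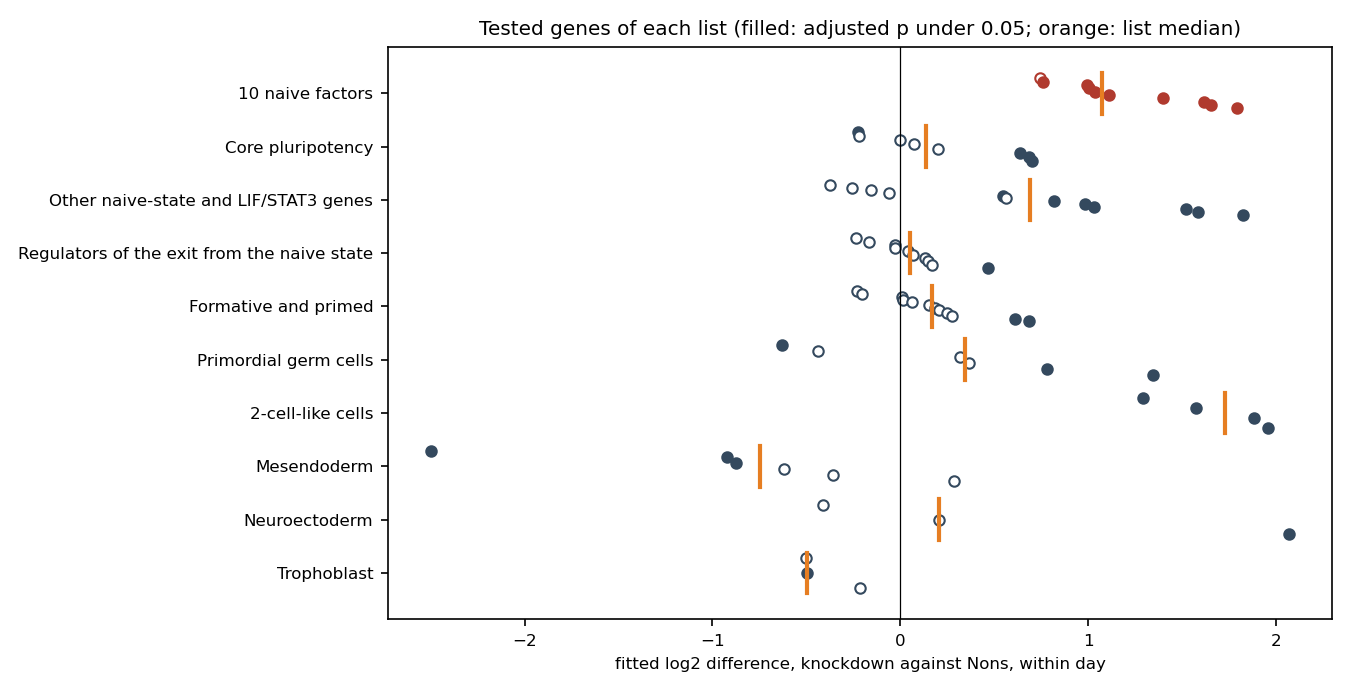
Fitted within-day log2 difference with knockdown (horizontal axis) for each tested gene of the 10 factors, the 4 related lists and the 5 lists of markers of other cells, filled where the limma adjusted p was under 0.05, with the list median in orange. The factors centre on 1.07, the exit regulators on 0.05 and the mesendoderm markers on -0.75, and the filled neuroectoderm point is Sox1, which passed the filter only through the knockdown libraries.

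Markers of other cells that share some of the 10 factors moved as well. Of the 7 listed markers of 2-cell-like cells in the table, 4 were tested and all 4 rose, beside 6.88% of all tested genes. They were Zscan4d (1.96, limma adjusted p = 0.00983), Tcstv1 (1.88, 0.00333), Zscan4c (1.57, 0.0141) and Zfp352 (1.29, 0.00892). With Smarcc1.6 alone all 4 rose, and with Smarcc1.7 alone only 1 did, Tcstv1. The summed level of the 7 ran from 2.50 to 19.97 CPM in Nons, 6.55 to 72.8 with Smarcc1.6 and 4.46 to 52.2 with Smarcc1.7, was 4.76 in Day0, and on day 5 was above that of day 4 in all 3 groups, as Dppa3 was. From day 5 to day 6 the sum went from 37.7 to 72.8 CPM with Smarcc1.6, from 32.2 to 52.2 with Smarcc1.7 and from 19.97 to 16.6 in Nons, while Dppa3 was lower on day 6 by 1.02, 1.14 and 1.79 log2 units. This step involves the day 6 libraries, which stood apart. Gm4340, 1 of the 7, had -0.33 log2 CPM in Nons, 1.92 with Smarcc1.6 and 1.18 with Smarcc1.7 on day 6. On days 4, 5 and 7 it was at -3.96 or lower in all 3 groups. Of 7 germ cell markers, which go with Prdm14 and Dppa3, 6 were tested, 2 rose (Dazl by 1.35, limma adjusted p = 0.00374, and Ddx4 by 0.78, 0.00193) and 1 fell (Dnd1 by 0.63, 0.0199). Of all tested genes, 6.88% rose and 4.77% fell. With Smarcc1.6 alone 2 germ cell markers rose and 2 fell, Dnd1 and Prdm1. With Smarcc1.7 alone 2 rose and 0 fell. The germ cell sum ran from 83.8 to 416 CPM in Nons, 76.8 to 627 with Smarcc1.6 and 83.7 to 569 with Smarcc1.7, and was 1130 in Day0. The high sums were mostly Dazl, which had 9.68 log2 CPM in Day0, where Kit had 7.48. On day 4 Dazl had 8.03 in Nons, 8.67 with Smarcc1.6 and 8.56 with Smarcc1.7. The part of the 2-cell-like and germ cell markers in the values of the factors was not tested.

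Of 8 mesendoderm markers, 6 were tested, 0 rose and 3 fell, beside 4.77% of all tested genes that fell. The 3 were T, the gene for Brachyury, by 2.50 (limma adjusted p = 0.0341), Eomes by 0.92 (0.0440) and Sox17 by 0.88 (0.0369). With Smarcc1.6 alone 1 of the 6 fell and with Smarcc1.7 alone 0. The mesendoderm sum ran from 38 to 353 CPM in Nons, 25.7 to 80.5 with Smarcc1.6 and 26.1 to 50.4 with Smarcc1.7, and was 20.1 in Day0. Of 4 neuroectoderm markers 3 passed the filter, and Sox1 passed it only through the knockdown libraries, so that its call is not counted. Its level was 0.03, 0.55, -1.14 and -2.89 log2 CPM in Nons, -0.26, 1.12, 3.32 and 1.20 with Smarcc1.6 and -0.49, 1.36, 2.78 and 0.62 with Smarcc1.7. The other two did not pass the test. The list had sums of 43.5 to 259 CPM in Nons, 33.0 to 261 with Smarcc1.6 and 35.8 to 199.9 with Smarcc1.7. The high sums were mostly Nes, which had 7.97 log2 CPM in Nons on day 6, where Pax6 had 3.02. Of 4 trophoblast markers, 3 were tested, 0 rose and 1 fell, beside 4.77% of all tested genes that fell. It was Krt8, by 0.50 (limma adjusted p = 0.0375). With either hairpin alone 0 of the 3 rose or fell. Elf5, too low to be tested, was higher than Nons in 8 of 8 same-day comparisons. The trophoblast sums ran from 13.4 to 2158 CPM in Nons, 15.6 to 1931 with Smarcc1.6 and 14.3 to 1565 with Smarcc1.7. The high sums were nearly all Krt8, so they do not describe the list. In Nons on day 7 Krt8 had 11.07 log2 CPM, where Cdx2 had 2.48, Gata3 2.36 and Elf5 -0.80. Tcstv3 and Pou3f2 had 0 reads in Day0, and in the hairpin groups no marker of the 5 lists was at 0 reads in all 4 libraries of its group. How far a change in the mix of cells moves with the 10 factors was not tested.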

How the data were processed

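Paired-end TruSeq RNA libraries were sequenced on a NextSeq500, trimmed with trim_galore and aligned by the authors with tophat or hisat2 to mm10 with FVB/NJ and CAST/EiJ variants masked. The submitters' processing notes name TopHat2 2.0.12 and bcl2fastq. SeqMonk gave the deposited values, which are log2 counts per gene scaled to mapped reads (log2 CPM), with 0 reads written as 0.9 reads. The strand setting of counting is not given in the sources used here. Reads and depth were recovered from the steps between low values, and 100% of these were whole within 0.05.

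The 10 genes, the related lists and the tests were chosen with earlier results of these data known. Genes named besides the 10 were Smarcc1, list genes called for knockdown (the 2 largest where more than 4 were called), list genes given as background, and the 2 tested genes with the highest Pearson r to each factor. Sums of markers were taken over recovered CPM.

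Genes whose mean over 12 libraries reached a log2 CPM of 0 were tested with limma 3.58.1 in R 4.3.3 (lmFit, eBayes with trend, Benjamini-Hochberg over 13406 genes, threshold 0.05). Knockdown models had day as a block. The models of change per day and of the interaction had day as a number and no such block. The labels give the shared day, and same-day libraries deviated together (Pearson r of 0.735 to 0.958). Day0 entered no test. The models were tried on simulated counts that had independent libraries and no shared day effect, so that trial does not cover the same-day dependence seen here. Alternatives changed the filter, scaling, offset, trend, weights, block and libraries. Hairpin sites, exon overlaps and near copies (at least 90% identity over 300 bases, blastn 2.17.0) came from GENCODE M21, and promoters from RefSeq (GRCm38.p6).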

Additional observations from a re-analysis of the deposited data

Results flagged for a closer look

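In all, 50 sets of 4 days were examined, the level of each factor in each hairpin group and its difference from Nons with each hairpin, for a day far from the other 3. The days are successive and not repeats of one condition, and chance alone would single out about 2.5 of 50 sets (1 in 20). One set stood out. The difference of Esrrb between Smarcc1.6 and Nons was 0.87 on day 7, where days 4 to 6 lay between 1.39 and 1.42, a gap of 0.945 of the whole range. With Smarcc1.7 the Esrrb difference was also lowest on day 7, at 0.45.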

How the results depend on the processing

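The counts of factors called were recomputed under each alternative. Without day as a replicate block, that is, with the paired days ignored, 0 factors passed for knockdown and 0 for either hairpin alone. Days or single libraries left out gave 5 to 9 factors for knockdown, 6 to 10 for Smarcc1.6, 0 to 6 for Smarcc1.7 and 8 for the change per day, of which Dppa3 took the place of Tfcp2l1 without day 4. For knockdown 5 were called with Smarcc1.6 and Nons alone and 0 with Smarcc1.7 and Nons alone. Hairpin against hairpin and the interaction gave 0 factors in each setting tried. All 10 knockdown differences stayed above 0 under each alternative. The change per day of Nanog reversed to -0.047 with median centring, to -0.30 and -0.058 in the Smarcc1.6 and Smarcc1.7 libraries alone (chosen after seeing the data), and ran from -0.36 to 0.36 with days or libraries left out. That of Dppa3 was 0.020 in the Smarcc1.6 libraries alone and ran from -0.88 to 0.17 with days or libraries left out. The cause was not tested. All-gene calls in either direction were 1561 for knockdown, 386 without day 5, 287 without day 6 and 4 without the day block. They were 57 with Smarcc1.6 and Nons alone and 0 with Smarcc1.7 and Nons alone. For Smarcc1.7 they were 329, with 1 without day 5 and 1 without day 6. Depth limits the Nons library of day 7, with 0 reads of Nr0b1, 13 of Prdm14 and 14 of Gbx2.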
